A study of Bos taurus with 4 samples.

Results

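A single two-channel cDNA array carried neutrophil RNA from 6 hours after calving against neutrophil RNA from a week before it. It is 1 of the 4 arrays of the series, taken by its labels, which give channel 1 as day 0.25 and channel 2 as day -7, counted from calving on day 0. Each side was 1 RNA pool of 4 parturient cows (Bos taurus), so there is 1 pool a side and no replicate pool. The other 3 arrays link pools of the same 2 days by another path, through pools of day 0 and day 1. All pools are purified blood neutrophils, and the cows' breed, age and health, the purification and whether the same cows served both days are not stated in the sources at hand. Of the 1296 elements of the array, each printed as 3 spots, 1295 had a value, and 443 of the 444 named genes did. EIF5, an initiation factor of translation, had none.

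Neutrophils are short-lived phagocytes that leave the blood to kill bacteria in the udder and the uterus. Around calving, cortisol rises in the cow, progesterone has fallen, and neutrophils of dairy cows are known to adhere, migrate and kill less well than at other times. This is a period in which mastitis and uterine infection are frequent. How mRNA of these cells differs between the week before calving and the first hours after it is the question of the comparison.

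Values are log2 ratios of channel 1 to channel 2, centred on the array's median element, and an element is the mean of its 3 spots. The deposited log ratios do not state which channel is the numerator. A positive value is therefore more signal in the day 0.25 pool only if channel 1 is the numerator, and no gene is called higher or lower. The ratios of single spots ran from 0.574 to 1.53. The intensity scale behind them is unknown, and sizes here are not transcript fold changes. With 1 array there is no test between the days. An element or gene was called when it stood at least 0.1 from the median with all of its spots on the same side, and errors below are SDs over the 3 spots of 1 element. These spots share the pools, the labelling and the slide, so the SD holds printing and reading error only.

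Spots of the same element agreed loosely. Across the 1281 elements with all 3 spots, the Pearson correlation was 0.36 between spots 1 and 2, 0.24 between spots 1 and 3 and 0.26 between spots 2 and 3 (Spearman 0.41, 0.36 and 0.39), over elements of 1 slide that are not independent. All 3 spots lay on the same side of the median in 626 elements (48.9%). The median SD over the spots of an element was 0.024, against an SD of 0.046 over all elements. On the other arrays the median SD over spots was 0.0087 to 0.012, and the SD over elements 0.015 to 0.032, so this array had the widest values and the widest spot error of the 4. Tested over its 3 spots with limma, no element passed at a Benjamini-Hochberg adjusted p below 0.05 (percent called 0.0, lowest adjusted p = 0.12). At an unadjusted p below 0.05 there were 254 of 1295 (19.6%). These p-values weigh a value against spot error on 1 slide only and do not test a difference between the pools.

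The call rule took 44 of the 1295 elements (3.4%), 18 positive (1.39%) and 26 negative (2.01%). Of the 443 named genes it took 21 (4.74%), 6 positive (1.35%) and 15 negative (3.39%). Counts in the gene lists below are to be set beside these shares, and beside the 52.6% of named genes that lay below 0. The lists were chosen with earlier results of these data known, so a list share above these supports nothing. The positive genes were GATD1, MKI67, SIVA1, TOR1B, LMO4 and NUP214. The negative genes were LUC7L3, ADCY7, NARF, TSSC4, NOSIP, CD37, CD84, CASP4, MSRB1, UCP2, SEMA4B, GLRX3, UCK2, PGRMC1 and KREMEN2. At a distance of 0.05 in place of 0.1 there were 186 elements (14.4%), and among the named genes 27 positive (6.09%) and 57 negative (12.9%). Over the 21 called genes the SD between spots ran from 0.033 to 0.28, with a median of 0.071, and in 6 of them it was larger than the value itself. The genes whose call survived each of 8 other ways of choosing, summarising and centring the spots of this array were ADCY7, CASP4, GATD1, MKI67, NARF and NOSIP, 6 of the 21. Keeping complete elements only, 1 of these ways, could hardly drop a call, because a call already needs every spot. When a running median over 27 consecutive elements was subtracted, CD37, GLRX3, LMO4, NUP214 and UCP2 were no longer called. Those nearest the limit with all spots on the same side were NUP214 at 0.10 inside it and ENDOD1, an endonuclease-domain protein, at -0.099 outside it, followed by POLR2G, a subunit of RNA polymerase II, at -0.096.

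**Figure D1:**
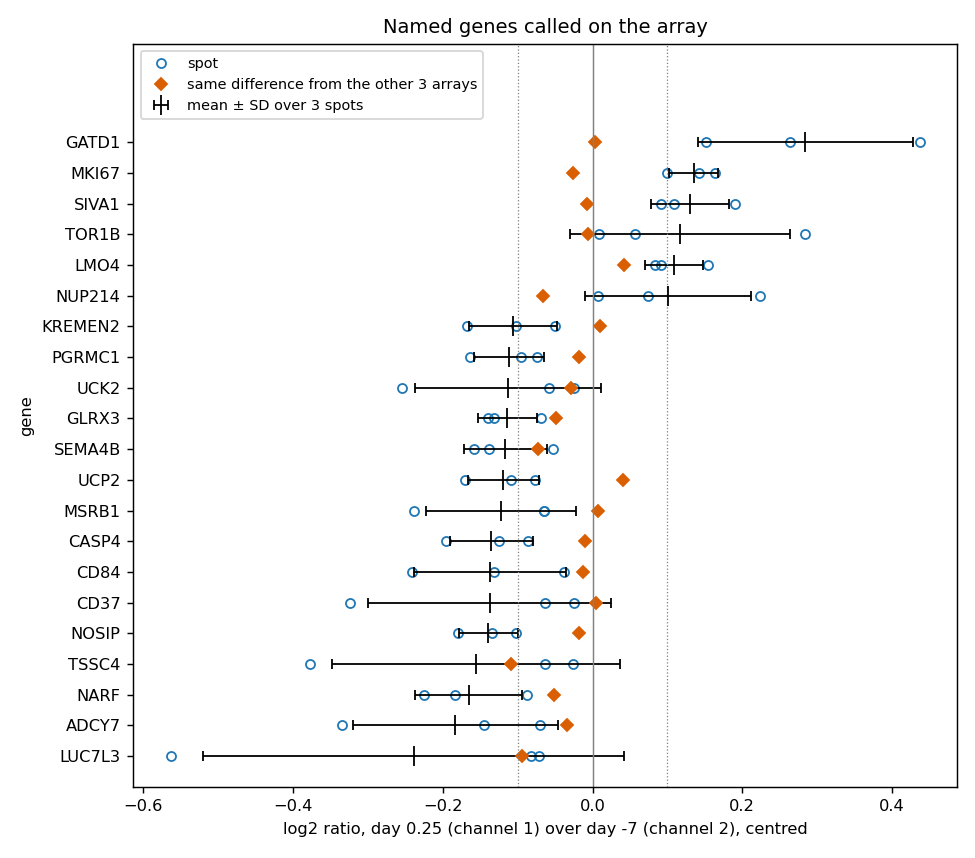
Log2 ratio on the array of day 0.25 and day -7 (x axis, centred on the array median) for the 21 called genes (y axis). Open circles are the 3 spots, the vertical tick and bar are their mean ± SD, diamonds are the same difference from the other 3 arrays, and dotted lines mark 0.1. GATD1 lies at 0.28 with its diamond at 0.0027, while LUC7L3 at -0.24 rests on 1 spot at -0.56.

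GATD1, named for its amidotransferase-like fold, had the most positive value of the named genes. Its spots read 0.26, 0.44 and 0.15, a mean of 0.28 ± 0.14. All 3 spots lie beyond 0.1 but far from each other, and the other 3 arrays put the same difference at 0.0027. GATD1 had been placed with genes of redox balance and nitric oxide, where it fits loosely. The other members of that list were NOSIP, MSRB1 and GLRX3.

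NOSIP, which binds nitric oxide synthases and moves them away from the membrane, read -0.18, -0.10 and -0.13 in its spots (-0.14 ± 0.039). Its 3 spots were among the closest to each other of the called genes, and each lay beyond 0.1. MSRB1, a selenoprotein that repairs oxidised methionine, read -0.065, -0.24 and -0.065 (-0.12 ± 0.10), with 1 spot well beyond the other pair. GLRX3, a glutaredoxin that handles iron-sulfur clusters, read -0.068, -0.14 and -0.13 (-0.11 ± 0.039). The list thus held 1 called positive and 3 called negative genes of 4, with a median of -0.12 beside -0.0017 over all named genes. GATD1 and NOSIP were put into this list with their values known, so its count supports nothing.

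At the nuclear envelope, 3 of the 5 genes of transport and envelope were called (60%, beside 4.74% of all named genes), in both directions. The list median was 0.05, and -0.061 on the other 3 arrays. NARF, which binds the tail of prelamin A, read -0.18, -0.23 and -0.087 (-0.17 ± 0.071). It was one of the steadier negative genes, with the other 3 arrays at -0.052. TOR1B, a torsin ATPase of the endoplasmic reticulum and nuclear envelope, read 0.0091, 0.057 and 0.28 (0.12 ± 0.15), and NUP214, a nucleoporin of the cytoplasmic face of the pore, read 0.0068, 0.074 and 0.22 (0.10 ± 0.11). Both rest on spot 3, and without it neither was called. SUN2, which ties the inner nuclear membrane to the cytoskeleton, had 2 elements at 0.042 and 0.057. RANGAP1, the activator of the GTPase of the import protein RAN, read -0.037, -0.069 and -0.09 (-0.065 ± 0.026) and was not called, while the other 3 arrays put it at -0.35, the lowest value any element had there.

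Among 17 genes of RNA splicing and processing 2 were called (11.8%, beside 4.74% of all named genes), both negative. The median was -0.012, with 11 members below 0 (64.7%, beside 52.6% of all named genes) and 6 above it. LUC7L3, a splicing factor related to a U1 particle protein of yeast, read -0.072, -0.56 and -0.082 (-0.24 ± 0.28). TSSC4, which acts in assembling the U5 particle, read -0.026, -0.063 and -0.38 (-0.16 ± 0.19). In each gene a lone spot sets the mean, spot 2 for LUC7L3 and spot 3 for TSSC4, while the remaining pair stays within 0.1 of the median. With the median spot in place of the mean neither was called. The other 3 arrays read -0.094 and -0.11. PRPF6, a scaffold of the tri-snRNP, stood at -0.06 and was not called. On the positive side were TARDBP, the RNA-binding protein TDP-43, whose spots read 0.031, 0.034 and 0.031, SRSF11, an SR-family splicing factor, at 0.022, and SRP19 at 0.031, a signal recognition particle protein that the symbol pattern swept in. The spots of TARDBP were close to identical, with an SD of 0.0017.

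Leukocyte receptors and adhesion molecules leaned to the negative side, with 13 of 17 genes below 0 (76.5%, beside 52.6% of all named genes) and a median of -0.034. The 3 called genes (17.6%, beside 4.74% of all named genes) were CD37, CD84 and SEMA4B. CD37, a tetraspanin of leukocytes, read -0.32, -0.064 and -0.025 (-0.14 ± 0.16), so its first spot carries the call. CD84, a receptor of the SLAM family, read -0.13, -0.038 and -0.24 (-0.14 ± 0.10). SEMA4B, a transmembrane semaphorin, read -0.14, -0.16 and -0.053 (-0.12 ± 0.056) and had the other 3 arrays on the same side, at -0.073. Above 0 were IFNGR2, a chain of the interferon gamma receptor, at 0.06 ± 0.052, SEMA4A at 0.037 ± 0.034 and TREM1, which amplifies inflammatory signals in neutrophils, at 0.025 ± 0.039. None of these was called, and a spot of TREM1 lay below the median.

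CD37 is also abundant in B cells and was 1 of only 2 of the 8 B cell markers among the named genes. The other, CD79B of the B cell receptor, stood at -0.0037 ± 0.012, and the array gives ratios, so no summed level of the markers can be set beside the pools. No gene of the marker lists for neutrophils, monocytes, other granulocytes, T and NK cells, red cells or platelets was among the named elements. The purity of the pools was therefore not tested. In pooled RNA, a change in the share of a cell type and a change of mRNA per cell cannot be told apart.

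MKI67, the proliferation marker Ki-67, was the 1 marker of precursors among the named elements. Its spots read 0.16, 0.10 and 0.14, a mean of 0.14 ± 0.033, the smallest spot SD among the called genes. All 3 spots stayed on the positive side at about the same distance, yet the other 3 arrays read -0.026. Of the 11 genes of cell cycle, replication and repair MKI67 alone was called (9.1%, beside 4.74% of all named genes). The list had 7 members below 0 (63.6%, beside 52.6% of all named genes), 4 above and a median of -0.024. FAAP20, of the Fanconi anaemia core complex, read 0.039, 0.055 and 0.089 (0.061 ± 0.025). FAAP24, another subunit of that complex, read -0.062, 0.014 and 0.19, with spots on both sides. CDK10, a cyclin-dependent kinase, stood at -0.082 ± 0.075 and NOP53, a nucleolar ribosome assembly factor, at -0.056 ± 0.028.

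SIVA1, a pro-apoptotic protein that binds the receptor CD27, comes directly before MKI67 in the order of the elements and had similar values. Its spots read 0.091, 0.11 and 0.19 (0.13 ± 0.052), and the other 3 arrays put it at -0.0071. The running median of the surrounding 27 elements was 0.0089 there, and both calls held after it was subtracted. CASP4, the inflammatory caspase that senses bacterial lipopolysaccharide in the cytosol, lay on the other side. It read -0.086, -0.20 and -0.12 (-0.14 ± 0.056), with a local running median of -0.023 and -0.01 from the other 3 arrays.

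SIVA1 and CASP4 were the called members among 11 genes of NF-kB signalling and cell death (18.2%, beside 4.74% of all named genes). Of the 11 genes 8 were below 0 (72.7%, beside 52.6% of all named genes), with a median of -0.036. The NF-kB subunits came close together without reaching the limit. NFKB1, the p50 precursor, read -0.063, -0.088 and -0.098 (-0.083 ± 0.018), and RELA, the p65 subunit, read -0.068, -0.063 and -0.13 (-0.086 ± 0.035). BIRC3, an inhibitor of apoptosis that NF-kB induces, read -0.084, -0.04 and -0.07 (-0.065 ± 0.022). All 9 spots of these genes lay below the median. Of all 443 named genes, 57 (12.9%) stood at least 0.05 below the median with all spots on that side. All spots lay on one side in 7 of the 11 list members and in 204 of the 443 named genes. The inhibitor NFKBIE stood above 0 at 0.081 ± 0.093, of which spot values of 0.18, 0.005 and 0.054 show that the first spot carries most. For NFKB1 the other 3 arrays had the opposite sign, 0.11, and for RELA and BIRC3 they read -0.029 and -0.015. IER5, an immediate early gene, was tight at 0.02 ± 0.0056.

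BIRC3 and FOXO3, a forkhead factor active when growth signals are low, were the 2 named genes from a list of genes that respond to glucocorticoids. FOXO3 read -0.069, 0.014 and -0.13 (-0.063 ± 0.075). Neither was called, and the spots of FOXO3 lie on both sides.

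**Figure D2:**
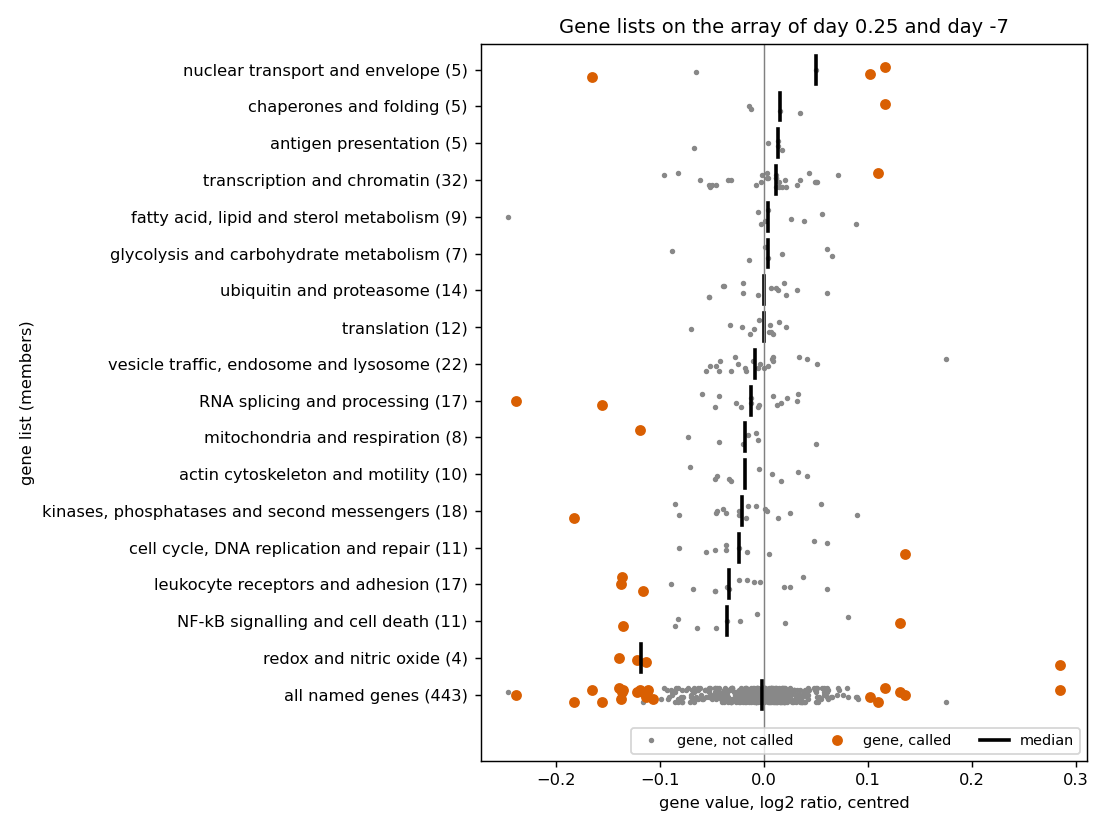
Gene values (x axis, log2 ratio centred on the array median) for all 443 named genes and for each list with at least 3 members (y axis, number of members in brackets). Grey points are genes, orange points called genes and black bars medians. The medians run from -0.12 for the 4 redox genes to 0.05 for the 5 genes of the nuclear envelope, and list members overlap the range of all genes. On the other 3 arrays the redox median was -0.008 and that of the nuclear envelope -0.061. The redox list holds genes placed with their values known.

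Signalling through cyclic AMP and kinases held 1 called gene of 18 (5.56%), near the share of all named genes (4.74%). The median was -0.021, with 12 members below 0 (66.7%, beside 52.6% of all named genes). ADCY7, an adenylyl cyclase of blood cells, read -0.33, -0.07 and -0.14 (-0.18 ± 0.14). The first spot is the farthest, but the call held with any of the 3 spots left out. PTK7, a pseudokinase of Wnt signalling, read -0.11, -0.095 and -0.048 (-0.086 ± 0.034) and had nearly the same value on the other 3 arrays, -0.082. NDRG1, induced by low oxygen and stress, read 0.11, 0.033 and 0.13 (0.089 ± 0.049). PTPRCAP and both CDK10 and CDK13 also belong to this list. MAP2K7, an activator of JNK, stood at 0.055 ± 0.12 and the receptor phosphatase PTPRF at 0.024 ± 0.0033. Outside the list, the adenosine receptor ADORA2B, which signals through adenylyl cyclase, read 0.051, 0.09 and 0.042 and was not called.

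In mitochondria 7 of 8 genes lay below 0 (87.5%, beside 52.6% of all named genes), with a median of -0.018. There was 1 called gene (12.5%, beside 4.74% of all named genes). That gene was UCP2, an uncoupling protein of the inner membrane, which read -0.17, -0.11 and -0.077 (-0.12 ± 0.048). It stands in a stretch of the array with a running median of -0.027, and after that was subtracted it was no longer called. The other 3 arrays gave it 0.041, the opposite sign. SLC25A25, a calcium-regulated carrier of adenine nucleotides, stood at -0.073 ± 0.079 and NDUFAF3, an assembly factor of complex I, at -0.044 ± 0.018. GCDH, of lysine breakdown, SUCLG2, of the citric acid cycle, TOMM22, of protein import, and NDUFS7, of complex I, lay between -0.021 and -0.0062. These were no larger than the median size over all elements, 0.021. VDAC3, a channel of the outer membrane, was the exception at 0.05 ± 0.04.

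Of the 9 genes of fatty acid, lipid and sterol metabolism none was called, and the most negative gene value of the array sits among them. CPT2, which the mitochondrion needs to take up long-chain acyl groups for oxidation, had spots of -0.064, 0.13 and -0.80. Its mean of -0.25 ± 0.49 comes from spot 3 alone, the lowest spot of the slide, while spot 2 lies above the median. CPT1A, the enzyme before it on the outer membrane, read 0.011, 0.06 and 0.0048 (0.026 ± 0.03). PEX16, of peroxisome assembly, read 0.022, 0.11 and 0.13 (0.088 ± 0.058) and DGAT1, of triglyceride synthesis, 0.056 ± 0.048. The ceramide synthase CERS4 stood at 0.038 with spots on both sides. SCD, INSIG1, ACSL4 and HSD17B4, of desaturation, sterol sensing, acyl-CoA synthesis and peroxisomal oxidation, all lay within -0.0058 and 0.0041 of the median. For HSD17B4 the other 3 arrays read -0.16.

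Among 7 genes of glycolysis and carbohydrate metabolism, none of them called, 5 lay above 0 and the median was 0.0034. Below 0 were 2 (28.6%, beside 52.6% of all named genes). PFKL, phosphofructokinase of liver type, read -0.037, -0.13 and -0.10 (-0.089 ± 0.047). PGK1, phosphoglycerate kinase, lay opposite with 3 nearly equal spots of 0.057, 0.067 and 0.057 (0.06 ± 0.0055). Between them stood PKM, pyruvate kinase, at 0.00049 ± 0.061 and GAPDH at -0.015 ± 0.017. PGK1 and GAPDH, both used as reference genes elsewhere, thus differ by more than the spread of their spots here. PDK2, a kinase that holds back pyruvate dehydrogenase, stood at 0.017 ± 0.036. The myeloid hexokinase HK3 had 2 elements at 0.0051 and 0.0016, and the heparan sulfate sulfotransferase HS6ST1 read 0.091, 0.067 and 0.038 (0.066 ± 0.027). GMDS, which makes the precursor of GDP-fucose, is outside the list and read 0.056, 0.064 and 0.089 (0.07 ± 0.017).

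Translation had the narrowest range of the lists with 10 or more genes. None of its 12 genes was called, 6 lay on each side of 0, and the median was -2.4e-05. RPL6, a large subunit protein, had the lowest gene value, -0.071, from 2 elements that disagree. One of them read -0.34, 0.065 and -0.20 and the other 0.037, -0.0053 and 0.017. RPSA, of the small subunit, stood at -0.033 ± 0.026 and RPLP1, of the stalk, at -0.021 ± 0.052. On the positive side PABPC1, the poly(A) binding protein, stood at 0.014 ± 0.0057, the mitochondrial ribosomal MRPS25 at 0.021 ± 0.015 and EIF2AK4, a kinase that halts initiation when amino acids are short, at 0.0082 ± 0.015.

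Transcription and chromatin was the largest list, with 32 genes, a median of 0.011 and 1 called (3.1%, beside 4.74% of all named genes). Of the 32 genes 20 lay above 0 and 12 below it (37.5% below, beside 52.6% of all named genes). LMO4, a LIM-domain co-regulator, read 0.15, 0.091 and 0.083 (0.11 ± 0.039). It was 1 of the positive genes with the other 3 arrays on the same side (0.042), but its local running median was 0.022 and the call was lost when that was subtracted. LITAF, induced by lipopolysaccharide and now known as an endosomal protein, read -0.12, 0.20 and 0.13, so its mean of 0.071 has spots on both sides. NFE2L1, a stress-responsive factor, stood at 0.051 ± 0.037. On the negative side POLR2G read -0.018, -0.21 and -0.062, HCFC1, a transcriptional co-regulator, read -0.10, -0.15 and 0.006, and TAF6, of the TFIID complex, read -0.034, -0.078 and -0.074. HCFC1 had -0.24 on the other 3 arrays and stands where the running median was -0.04.

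No gene of the actin cytoskeleton and motility list was called out of 10. Of these 6 lay below 0 (60%, beside 52.6% of all named genes), with a list median of -0.018. RAC1 and CDC42 are the small GTPases that drive lamellipodia and polarity in moving neutrophils. RAC1 read -0.11, -0.074 and -0.033 (-0.071 ± 0.037) and CDC42 read -0.11, 0.014 and -0.05 (-0.047 ± 0.06), so RAC1 but not CDC42 had its spots on the same side. WASF2, which links RAC1 to actin branching, stood at -0.045 ± 0.13. COTL1, a coactosin-like actin binder, read 0.04, 0.031 and 0.053 and MSN, the membrane linker moesin, 0.045, 0.068 and -0.014. Non-muscle myosin MYH9 (-0.0052), tropomyosin TPM3 (0.016), the dynein chain DYNC1I2 (0.0074) and TUBGCP3 of the microtubule nucleating complex (-0.034) were not called either.

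Antigen presentation had 5 genes and no call. BOLA-DMB, which with BOLA-DMA helps load peptide on MHC class II, read -0.075, -0.078 and -0.049 (-0.067 ± 0.016), a small value with tight spots. Its partner BOLA-DMA stood at 0.017 ± 0.03 and the class II chain BOLA-DRA at 0.013 ± 0.017. BOLA-DMB and BOLA-DMA thus lie apart by more than either spot SD, and for BOLA-DMB the other 3 arrays had the opposite sign (0.058). TAPBPL, a tapasin-like editor of class I peptides, stood at 0.013 and the protease CTSW at 0.0041.

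Traffic, degradation and folding gave almost no calls. COG1, of the Golgi tethering complex, topped the 22 genes of vesicle traffic with 0.18 ± 0.30 and was not called. Its spots were -0.0053, 0.0065 and 0.52, so the mean comes from 1 spot. Next came TMEM229B at 0.051 ± 0.024 and TRAM1, of the translocon, with spots of 0.041, 0.037 and 0.045 and 0.045 from the other 3 arrays. The lowest were STX7, a syntaxin of late endosomes (-0.056 ± 0.021), LAPTM5, a lysosomal protein of leukocytes (-0.052 ± 0.011), and TMEM160, whose gene value was -0.046. The list median was -0.0085. Symbols beginning with TMEM entered by pattern and name no shared function.

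Ubiquitin and proteasome genes numbered 14 with none called and a median of 0.00016. ADRM1, a ubiquitin receptor of the proteasome, read -0.076, -0.04 and -0.042 (-0.053 ± 0.02), and RNF149, a ring finger ligase, had 2 elements at -0.059 and -0.046. USP3, which removes ubiquitin from histones, read 0.15, -0.09 and -0.18, with spots on both sides. Above 0, beside FAAP20, which is in this list too, were the ligase UBR4 (0.031) and the scaffold CUL4B (0.021). The 5 chaperone genes had a median of 0.015, with TOR1B called (20%, beside 4.74% of all named genes). DNAJC17 (0.035), HSPA9 of mitochondria (0.015), the cyclophilin PPID (-0.013, from 2 spots) and SERP1 of the endoplasmic reticulum (-0.014) were not.

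There were 3 called genes that belonged to no list. UCK2, which phosphorylates uridine and cytidine, read -0.25, -0.025 and -0.058 (-0.11 ± 0.12). PGRMC1, a haem-binding membrane protein first described in progesterone binding, read -0.096, -0.16 and -0.074 (-0.11 ± 0.047), and KREMEN2, a Dickkopf receptor of Wnt signalling, -0.05, -0.10 and -0.17 (-0.11 ± 0.059). PGRMC1 and KREMEN2 have 3 spots of graded size on the negative side, while UCK2 has 1 far spot. On the positive side, short of a call, were ANKRD10, an ankyrin repeat protein, at 0.09 ± 0.058 and ZDHHC19, a palmitoyltransferase, at 0.076 ± 0.02.

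Large element means were often made by a lone spot. Of the 58 elements at least 0.1 from the median (4.48%), 14 had spots on both sides or a spot missing and were not called. Among the 44 called elements, 8 had all 3 spots beyond 0.1, 22 had 2 and 14 had 1. GATD1 and NOSIP were the 2 named elements with all 3 beyond it. Among named elements the widest disagreement was that of CPT2, and the next were those of CASTOR1, a cytosolic arginine sensor (0.042, -0.24 and 0.44), and COG1. FRMD8, which stabilises the protease complex that sheds TNF, read -0.037, -0.40 and 0.086, and DEGS1, of ceramide synthesis, read -0.10, -0.046 and 0.27. In each of these the mean hides spots of both signs.

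**Figure D3:**
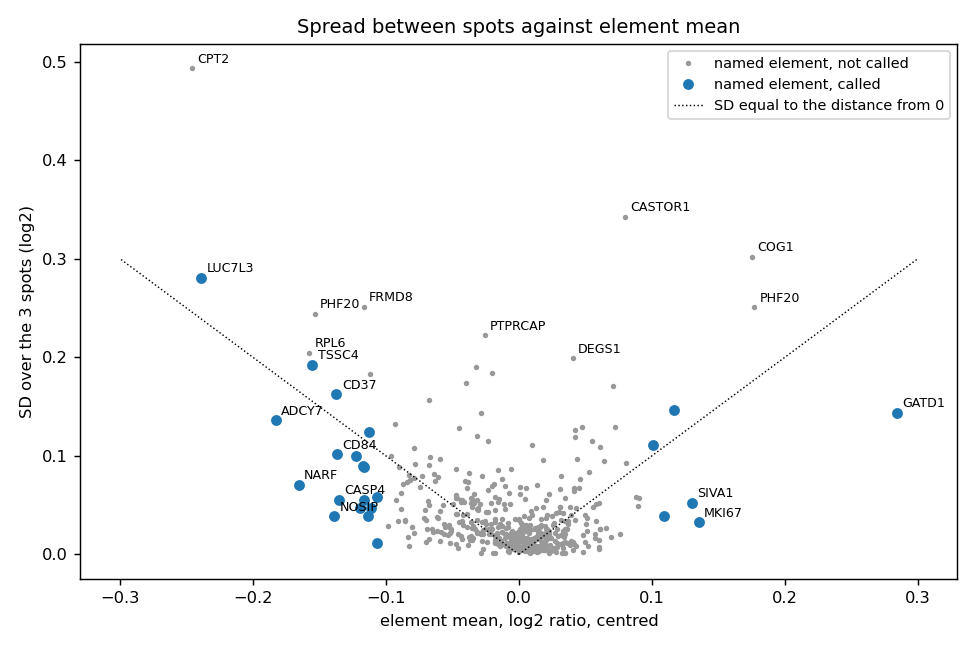
SD over the 3 spots (y axis, log2) against the element mean (x axis, log2 ratio centred on the array median) for named elements. Blue points are called, grey points are not, and on the dotted lines the SD equals the distance from 0. CPT2 has the largest SD, 0.49, while MKI67 and NOSIP combine means beyond 0.13 with SDs of 0.033 and 0.039.

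Genes printed more than once gave a further view of agreement, between elements rather than spots. There were 32 such genes, and in 11 all elements had the same sign. PHF20, a chromatin reader, was the extreme, with elements at -0.15 and 0.18. Its spots read 0.019 and -0.33 in the first, which lacks a spot, and 0.14, 0.44 and -0.055 in the second. PTPRCAP, a phosphatase-associated protein of lymphocytes, had 6 elements. One of them was called at -0.12 ± 0.089, while the other 5 lay between -0.029 and 0.014, so the gene at -0.024 was not called. The serine dehydratase SDS had 1 called element with spots of -0.12, -0.11 and -0.095 and another at -0.02. TMEM160 likewise had 1 called element at -0.12 and another on the positive side with spots of 0.02, 0.024 and 0.033.

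EHBP1L1, TSPAN14, DCUN1D5 and NAT10 also had elements of opposite sign, with ranges of 0.12, 0.11, 0.097 and 0.09. At the other end APOBEC3Z2, an antiviral deaminase, had elements only 0.0012 apart, KLF2, a factor of leukocyte quiescence, 0.0013, HK3 0.0035 and DCTPP1 0.0035. AFG3L2 of mitochondrial proteolysis (-0.041 and -0.036), WDR77 (0.022 and 0.028), RNF149 and SUN2 agreed too, to within 0.015. Of the agreeing genes APOBEC3Z2, KLF2 and HK3 lie near 0, where there is little to disagree on. The others lie between -0.053 (RNF149) and 0.05 (SUN2), and none of the genes with several elements was called as a gene. Such a gene needed all spots of all its elements on the same side, a stricter bar than for other genes.

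**Figure D4:**
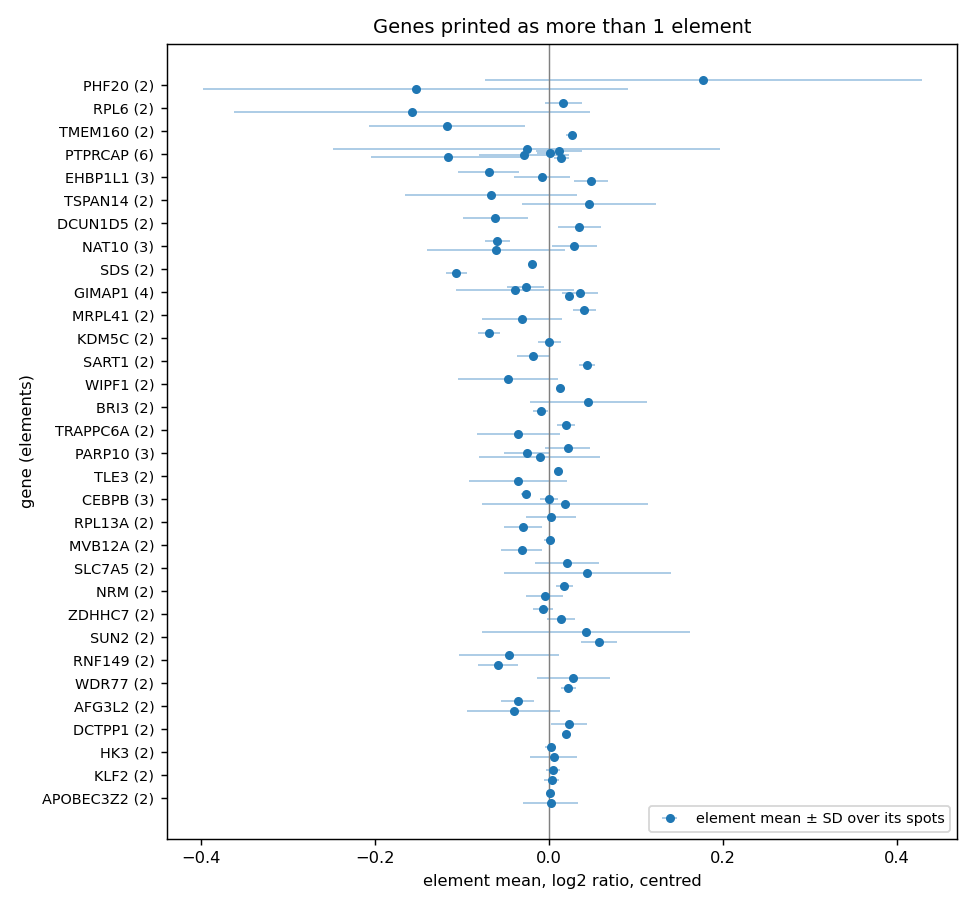
Element means (x axis, log2 ratio centred on the array median) with SD over their spots for the 32 genes printed as more than 1 element (y axis, number of elements in brackets), ordered by range. PHF20 spans 0.33 and APOBEC3Z2 0.0012.

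Elements without a single gene name made up 20 of the 44 calls, 12 positive and 8 negative. Of the positive ones 9 fell among the first 50 elements in the deposited order, none of which is named, and no element there was called negative. Over all elements 1.39% were called positive and 2.01% negative. The cut at 50 ends on a called element and was not part of the rule for naming, so this count supports nothing. These 9 had means from 0.10 to 0.15, spots from 0.072 to 0.22 and spot SDs from 0.01 to 0.072, so they were tighter than most called genes. The median of the first 50 elements was 0.016, and 0.061 on the other 3 arrays. Elsewhere on the array 9 elements were called positive and 26 negative, among them 11 without a name, 3 positive and 8 negative. The highest mean of all, 0.29, was an unnamed element near the end of the list, number 1218, with spots of 0.61, 0.28 and -0.018, which was not called. It is singled out here after its value was seen.

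**Figure D5:**
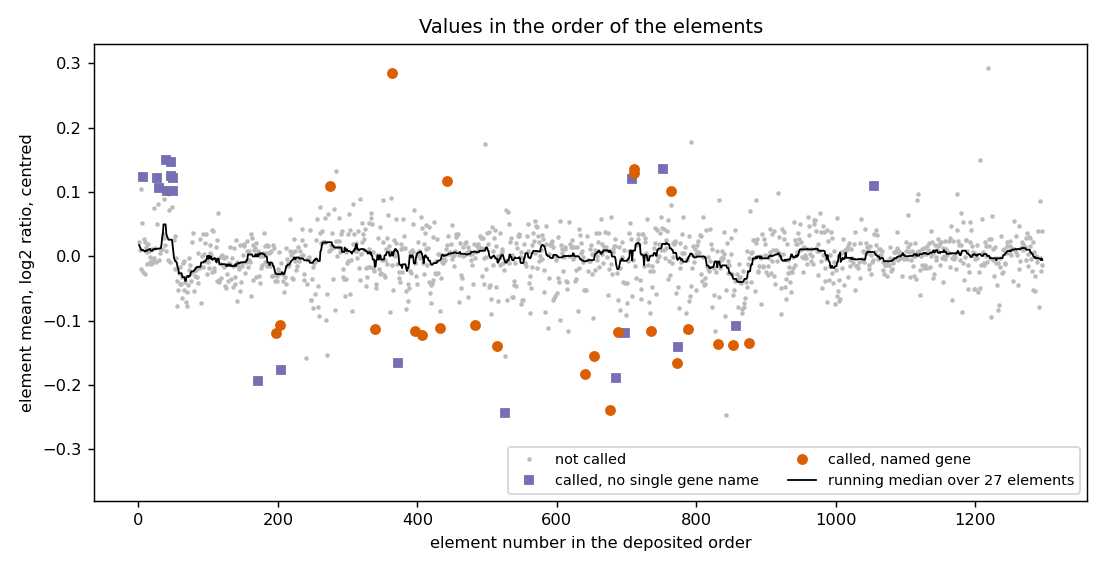
Element means (y axis, log2 ratio centred on the array median) against the element's number in the deposited order (x axis). Orange circles are the 24 called elements with a gene name, purple squares the 20 without a single one, and the line is the running median over 27 elements. The 9 positive calls among the first 50 elements stand together at the left.

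The other 3 arrays give the same difference without this slide, if all run as channel 1 over channel 2. No array repeats this pair with the channels exchanged, so on this array day and channel cannot be told apart. On the other path day 0.25 was in channel 2 and day -7 in channel 1. For the 21 called genes the median size of the value was 0.13 on this array and 0.026 on that path, where they ran from -0.11 to 0.042. Over all elements the median sizes were 0.021 and 0.03. For the 9 called elements among the first 50 they were 0.12 and 0.13, with values from -0.0048 to 0.17 on the other path. The called genes thus had about a typical size on the other path, while most but not all of the unnamed group at the start was large on both. Genes and elements were chosen for their size on this array and not on the other path. Pools labelled day 0.25 and day -7 enter both paths.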

How the data were processed

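RNA pools from blood neutrophils were hybridised in pairs to cDNA arrays. The deposited values are log10 ratios, 1 per spot and array. On every array at least 99.8% of them, raised to base 10, fall on multiples of 0.0001 (tolerance 2% of the last decimal), so each is the log10 of a rounded ratio. The sources used here do not give the authors' background correction, normalization or filters, nor dyes, numerator or intensities. Precision is limited by the number of arrays. The column median of this array was 0.00139 (log10).

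Values were multiplied by 3.32 to give log2 ratios, each 3 consecutive spots were averaged as 1 element, and the array was centred on its median element. Missing were 20 spots, which left 11 elements with 2 spots, 3 with 1 and 1 with 0. The platform annotation named 1 gene for 486 elements and several for 9. Current symbols came from the bovine RefSeq table (ARS-UCD2.0, used for names alone), 485 through the gene ID and 1, MSRB1, through an older symbol. A gene with several elements is their mean. Spots were tested against the array median with limma 3.58.1 in R 4.3.3, including elements with fewer than 3 spots, and the script was tested on simulated data. Python 3.11.15 did the rest. The value from the other 3 arrays is minus the sum of their centred log ratios, and was not centred again.

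Genes were named by rule: the 15 most positive and 15 most negative with all spots on one side, list members (all, or the 3 highest and 3 lowest in lists over 10), the 10 widest spot SDs, 8 widest and 8 narrowest genes with several elements, and every marker, glucocorticoid-responsive or reference gene. A member of the actin list is not reported here. ENDOD1 and single unnamed elements were chosen after their values were seen. The array, the 27 gene lists and the rule were chosen with earlier results of these data known. Lists were matched by symbol or symbol pattern, so some members fit loosely, and they held 202 of the 443 genes. Of the lists, 5 had no member and TGFBR2, the 1 member of the cytokine list, stood at 0.01. Alternatives changed the spot summary, the spots used, the centring, the filter and the size of the call.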

Additional observations from a re-analysis of the deposited data

How the results depend on the processing

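Of the 11 alternatives for the count of called elements, 8 left it within 1.5 times of 44. It was 69 without spot 3 of every element, 33 of them shared with the 44, and 64 and 55 without spots 1 and 2 (36 and 34 shared). It was 186 with a call at 0.05 and 10 with a call at 0.15, of which 1 was positive. With the median spot it was 38 (30 shared), and with a running median subtracted 31 (30 shared). No element passed the limma test over spots under any of 4 alternatives, with 230 to 267 at an unadjusted p below 0.05. Of the 21 called genes 12 remained with the median spot, 8 with the 2 closest spots, 17, 17 and 15 without spots 1, 2 and 3, 16 after a running median was subtracted, and 21 without centring or with complete elements only. Keeping complete elements only could hardly change the counts of elements or genes, because a call already needs all 3 spots. On the other 3 arrays, read as channel 1 over channel 2, 8 of the 21 turned sign: CD37 (0.0047), KREMEN2 (0.0096), MKI67 (-0.026), MSRB1 (0.0070), NUP214 (-0.066), SIVA1 (-0.0071), TOR1B (-0.0058) and UCP2 (0.041). Of these genes MKI67, NUP214, SIVA1 and TOR1B were positive on this array and the others negative. The other path was not centred again, and its medians were below 0 in the stretches that hold most named genes. The cause of the turned signs was not tested.

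Over the settings of this array the list medians ran from -0.064 to -0.031 for NF-kB and cell death, -0.047 to -0.022 for leukocyte receptors and 0.027 to 0.081 for the nuclear envelope, whose median was -0.061 on the other 3 arrays. The medians of 7 lists, all near 0, had both signs over these settings: translation, splicing, transcription, actin, antigen presentation, ubiquitin and glycolysis. No paired analysis was possible because each comparison has 1 array and the labels carry no replicate numbers that pair pools.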
